A study of Mus musculus with 2 samples.

Results

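The adaptor module described here is a set of 10 genes that carry signals from interleukin-1 and Toll-like receptors: Myd88, Tirap, Irak4, Irak1, Irak2, Irak3, Tollip, Traf6, Tab2 and Map3k7. The members were chosen by name, for their known role, from 39017 genes in the counts table, at a time when earlier results of these data were known. Traf6, Irak1 and Irak2 were among them also as known miR-146a targets. All 10 had at least 20 counts summed over both libraries. The study compared LSK cells, sorted from bone marrow as Lin- Sca-1+ c-Kit+, between wild-type (WT) mice and mice that lack miR-146a; this fraction contains the blood stem cells and early progenitors. The WT library was made from 12 pooled mice and the miR-146a-/- library from 6. Both pools were of the C57BL/6J background, aged 10 to 14 weeks, with no treatment named in the labels. The labels do not say that the deletion is limited to LSK cells, and each pool gave 1 library, so replicates are lacking, no test could be run and every statement compares these libraries.

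Binding of an interleukin-1 or Toll-like receptor to its ligand recruits MyD88, for some receptors through the bridging adaptor TIRAP. MyD88 stacks with the kinase IRAK4 and then IRAK1 or IRAK2, which hand the signal to TRAF6, a ubiquitin ligase. Ubiquitin chains made by TRAF6 are bound by TAB2, which activates the kinase TAK1, the product of Map3k7, upstream of NF-kB and of MAP kinases. IRAK3, also called IRAK-M, and TOLLIP restrain the chain. NF-kB induces miR-146a, and miR-146a represses Traf6 and Irak1, which are the classic case of feedback by a microRNA on innate signalling, with Irak2 a further reported target.

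The mature microRNA is shown first because its seed, bases 2 to 8 in capitals, defines the sites sought in the members. RefSeq places it at chr11:43374435-43374456 on the minus strand (GRCm38.p6).
mmu-miR-146a-5p: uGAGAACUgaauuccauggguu

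In the module, 5 of 10 members carried the complementary 7 bases, AGTTCTC, in the longest annotated 3' untranslated region (UTR), searched on the transcribed strand only. The 3 reported targets were placed in the module as such, so this share follows in part from the choice of members. The windows below show their sites. Each is 30 bases of the transcript in GENCODE M21 (mm10), 5′ to 3′, with the site in capitals. An 8-base site is AGTTCTCA, which contains AGTTCTC and adds an A at its end, and a 7-base site with A is GTTCTCA.
Traf6 site 1, chr2:101697937-101697966, plus strand: agaagttaccgctctggtgttgAGTTCTCA
Traf6 site 2, chr2:101698001-101698030, plus strand: accatgatccctggaaggcttaAGTTCTCA
Traf6 site 3, chr2:101698813-101698842, plus strand: catatacagtactttggagtctAGTTCTCA
Traf6 site 4, chr2:101701337-101701366, plus strand: tctcccgggactttgctactgcAGTTCTCA
Irak1 sites 1 and 2, chrX:74015377-74015406, minus strand: ggtcaaAGTTCTCAtgcttggaAGTTCTCA
Irak1 site 3, chrX:74015287-74015316, minus strand: gagagagggcagtggaccctgctGTTCTCA
Irak2 site 1, chr6:113694110-113694139, plus strand: atgctgttgcccccaaacctcttAGTTCTC
Irak2 site 2, chr6:113694244-113694273, plus strand: acctacagccggtgtctccgcaAGTTCTCA
Irak2 site 3, chr6:113694626-113694655, plus strand: ctttgaaaatgtatctgttctgtGTTCTCA

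Traf6 held 4 sites of the 8-base kind, and no other gene among the 12249 measured protein-coding genes with an annotated 3' UTR held as many. Its 3' UTR was also long, at 4170 bases against a median of 1177 and an upper quartile of 2293 over those genes, so more sites can occur in it. The first and second Traf6 sites began 64 bases apart, and the fourth began 3860 bases after the stop codon. In Irak1, 2 sites of the 8-base kind began 16 bases apart and 40 bases into the 3' UTR, and 5 of its 7 coding transcripts with a 3' UTR held a 7-base match. Irak2 had 1 site of 8 bases and 1 further 7-base match, which 2 of its 3 coding transcripts held. At least 1 AGTTCTC lay in the 3' UTR of 12.6% of the 12249 genes, at least 2 in 1.69%, and at least 2 sites of 8 bases in 0.261%. Which 3' UTR the LSK cells use was not measured.

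Among the other members, Tirap had 2 matches to AGTTCTC in its longest 3' UTR, which was carried by 1 of its 4 coding transcripts, and Tollip had 1. Irak3, Irak4, Myd88, Tab2 and Map3k7 had 0, although the 3' UTR of Map3k7 was 3934 bases long. The map of seed matches shows the sites near the stop codon in Irak1. In Traf6 they began at bases 460, 524, 1336 and 3860 of the 4170 in its 3' UTR.

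**Figure D1:**
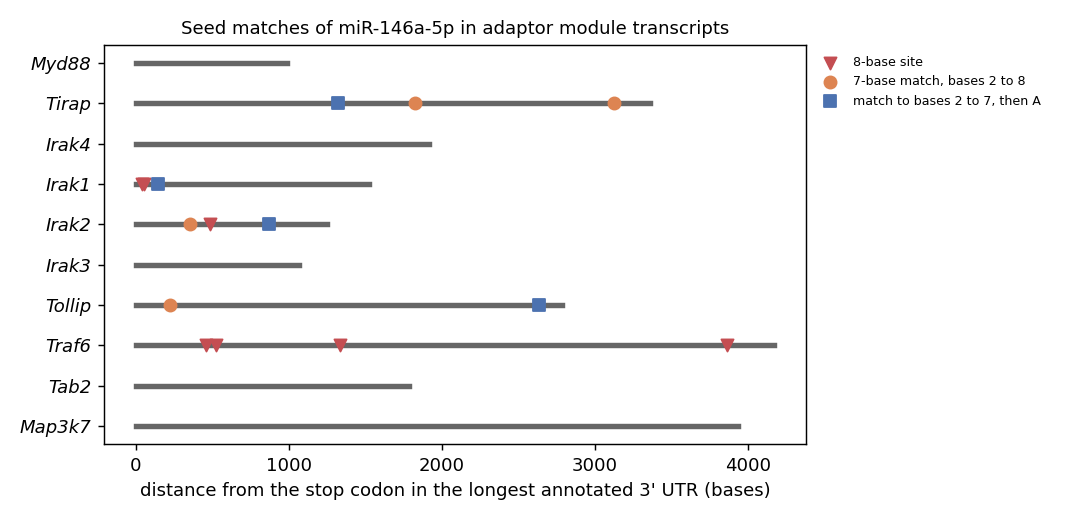
Position of miR-146a-5p seed matches in the longest annotated 3' UTR of each of the 10 genes; the horizontal axis is the distance from the stop codon in bases and each grey line is 1 UTR drawn to scale. Traf6 carries 4 sites of 8 bases, Irak1 carries 2 that nearly coincide at this scale, and Irak3, Irak4, Myd88, Tab2 and Map3k7 carry no match of 7 bases.

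The WT library held 35069136 counts and the miR-146a-/- library 22231389. Levels are given below as normalised CPM, the counts per 1000000 of the TMM effective library size, with exact Poisson intervals in figures and exact Clopper-Pearson intervals for ratios. These 95% intervals cover counting error only. The stem cell markers Kit (558 normalised CPM for WT, 728 for miR-146a-/-) and Ly6a, which encodes Sca-1 (66.8 and 74.6), were present in both libraries. Of 8 LSK markers, 6 had a positive log2 ratio and 2 a negative one, Cd34 at -0.19 and Flt3 at -0.23. By the 1.5-fold rule given below, 1 was higher (Gata2 at 0.97) and 0 lower, where 5.35% and 1.53% of all measured genes were. Of 6 T cell and NK cell markers, Cd3d and Cd3e had 0 counts in both libraries, while Lck (1054 and 255 counts) and Nkg7 (1602 and 530) were present, and Cd247 (1.52) and Gzmb (1.93) were higher from few counts; the summed level of the 4 measured was 58.4 normalised CPM for WT, 51.2 for miR-146a-/-. Of 6 measured neutrophil markers 3 were lower and 0 higher, with Ltf at -2.80, a median at -1.31 and summed levels of 13.7 and 5.62. Mir146 itself had 0 counts in both libraries, so the deletion could not be checked. The share of counts in protein-coding genes was 81.4% for WT against 51.5% for miR-146a-/-, and the choice of scaling mattered: TMM put the median log2 ratio over all 13880 measured genes at -0.01 and total counts put it at -0.83. In bulk samples such as these, fewer cells of a type and less RNA per cell cannot be told apart.

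Under TMM scaling, no member of the module differed by more than 1.5-fold beyond counting error. By the rule that the whole interval lie beyond 1.5-fold, 0 of 10 were higher and 0 lower in the miR-146a-/- library, where 5.35% of all measured genes were higher and 1.53% lower (6.87% either way). With so small a background, a count of 0 among 10 genes does not set the module apart. By the looser rule that the interval exclude equality, 4 members lay above WT (Irak2, Irak3, Traf6 and Tab2), 2 lay below (Irak4 and Myd88) and 4 held equality, against 28.0% of all genes above and 29.0% below (57.1% either way). The median log2 ratio of the 10 genes was 0.17, beside -0.01 over all measured genes. Scaled by total counts all 10 ratios were negative, with 0 members called higher and 5 lower, where 1.01% of all genes were higher and 51.0% lower, but 1 scaling factor moves all ratios alike and leaves their order as it is.

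**Figure D2:**
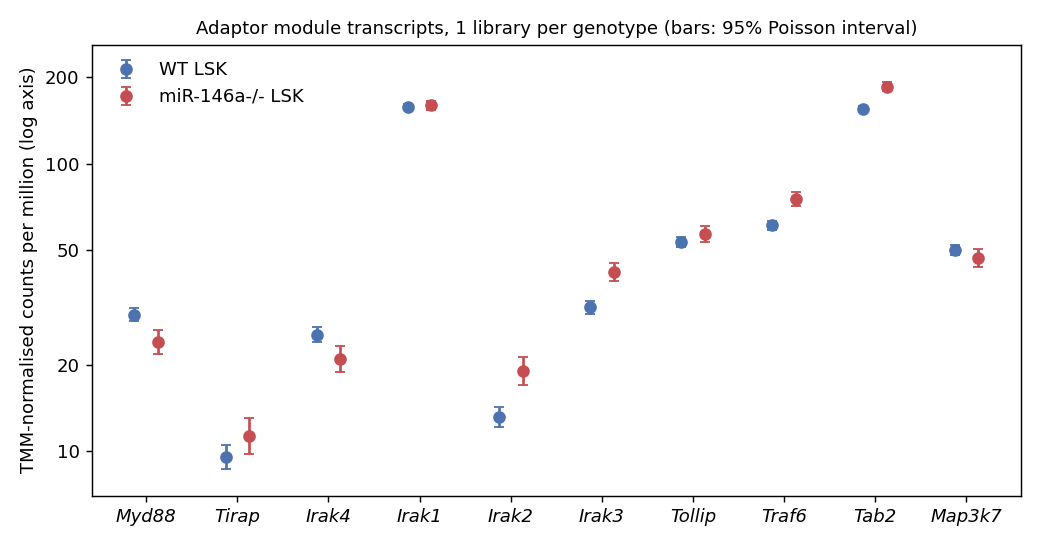
Normalised CPM of the 10 genes on a log axis in the WT (blue) and miR-146a-/- (red) libraries, 1 library each; bars are 95% Poisson intervals of the counts. Irak2, Irak3, Traf6 and Tab2 sit higher in miR-146a-/-, Myd88 and Irak4 lower, and Irak1 is at 158 and 160.

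At the receptor, Myd88 (chr9:119335934-119341411, minus strand, mm10), the adaptor shared by most of these receptors, had 1392 WT counts and 402 from miR-146a-/-, or 29.9 and 24.0 normalised CPM. Its log2 ratio of -0.31 (-0.48 to -0.15) was the lowest of the module. Tirap (chr9:35184551-35200291, minus strand), which anchors MyD88 at the membrane, was the least abundant member, with 446 and 189 counts, or 9.57 and 11.3 normalised CPM. The 2 libraries were not separated for Tirap beyond counting error, at 0.24 (-0.01 to 0.49). Myd88 shares 290 of its 2576 exonic bases with Acaa1a on the opposite strand, and Acaa1a was at -0.50 (-0.71 to -0.31). Tirap shares 446 of its 4929 exonic bases with Gm39318, also on the opposite strand, which has no row in the counts table. It shares 39 more with Srpr on that strand, which was at 0.21 (0.13 to 0.29). The labels call the libraries single-stranded, but whether strand was used in counting is not given in the sources used here, and the part of such overlaps in the result was not tested.

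The IRAK genes differed among themselves, with intervals wholly below equality for Irak4, across it for Irak1 and above it for Irak2 and Irak3. Irak4 (chr15:94543643-94581815, plus strand), the kinase that acts first, had 1187 and 350 counts, or 25.5 and 20.9 normalised CPM, which gave a ratio (log2) of -0.28 (-0.46 to -0.11). It shares 395 exonic bases of 5021 with Twf1 on the opposite strand, which was at -0.23 (-0.38 to -0.08).

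Irak1 (chrX:74013914-74023918, minus strand), the kinase that recruits TRAF6, had 7350 and 2672 counts, or 158 and 160 normalised CPM. Its log2 ratio of 0.02 (-0.05 to 0.08) was the closest to equality of the 10 genes, and it carries the 2 sites of 8 bases shown above. Irak1 is X-linked, and the pools differed in sex-linked RNA, with Xist at a log2 ratio of 3.64. The Y-linked genes Ddx3y (-2.33), Uty (-2.47), Eif2s3y (-2.60) and Kdm5d (-2.75) went the other way. Sex and genotype were therefore not separated in these pools, and the part of sex in any ratio given here was not tested. The 420 measured protein-coding genes on the X chromosome had a median of 0.02, beside -0.03 for 11885 on autosomes.

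Irak2 (chr6:113638467-113695026, plus strand), a family member that sustains late signalling, had 614 WT counts and 318 from miR-146a-/-, or 13.2 and 19.0 normalised CPM. Its log2 ratio of 0.53 (0.33 to 0.73), or 1.44-fold, was the highest of the module, and 14.4% of all measured genes had a higher one. The interval crossed the 1.5-fold line, so it was not called. Irak3 (chr10:120141648-120202130, minus strand), the inhibitory member, followed with 1475 and 704 counts, or 31.6 and 42.1 normalised CPM, a log2 ratio of 0.41 (0.28 to 0.54) or 1.33-fold. Irak2 carried 2 matches of 7 bases and Irak3 carried none, and the intervals of their ratios overlapped.

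IRAK-M is best known in monocytes and macrophages, so the marker list of those cells is given beside Irak3. All 7 markers were measured and none was at 0, with 2 called higher (F13a1 at 1.46 and Ms4a6c at 0.88) and 0 lower, where 5.35% and 1.53% of all genes were, a median at 0.63 and a summed level of 97.8 normalised CPM for WT, 111 for miR-146a-/-. Of these markers 3 had a negative ratio. The most abundant, Lyz2 (2933 and 860 counts), was at -0.29 (-0.40 to -0.18). Cx3cr1 (47 and 13 counts) at -0.37 (-1.39 to 0.53) and Adgre1 (17 and 4 counts) at -0.58 (-2.64 to 1.01) held equality. The part of such cells in the Irak3 ratio was not tested. Irak3 also shares 192 of its 3676 exonic bases with Tmbim4 on the opposite strand, which was at 0.10 (-0.08 to 0.27).

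Tollip (chr7:141874813-141918507, minus strand), the other brake, had 2485 and 956 counts, or 53.3 and 57.2 normalised CPM, and was not separated between the libraries at 0.10 (-0.01 to 0.21). The intervals of the inhibitory members Irak3 and Tollip did not overlap.

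Traf6 (chr2:101678429-101701669, plus strand), the gene most often cited as a miR-146a target, had 2850 WT counts and 1261 from miR-146a-/-, or 61.1 and 75.4 normalised CPM. Its log2 ratio was 0.30 (0.21 to 0.40), or 1.23-fold, so it lay above equality and short of 1.5-fold. The interval of Traf6 held the ratios of 1593 measured genes, Traf6 included, or 11.5% of them. Its longest transcript has 6169 bases, the longest of the module, and a ratio corrected for length and GC content was 0.19.

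Below TRAF6, Tab2 (chr10:7905653-7956230, minus strand), which binds ubiquitin chains, had 7231 and 3103 counts, or 155 and 186 normalised CPM, a log2 ratio of 0.26 (0.20 to 0.32) or 1.20-fold. Map3k7 (chr4:31964097-32023467, plus strand), which encodes the TAK1 kinase itself, had 2343 and 785 counts, or 50.3 and 46.9 normalised CPM. Its log2 ratio of -0.10 (-0.22 to 0.02) held equality and did not overlap that of Tab2, its partner in the same complex.

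**Figure D3:**
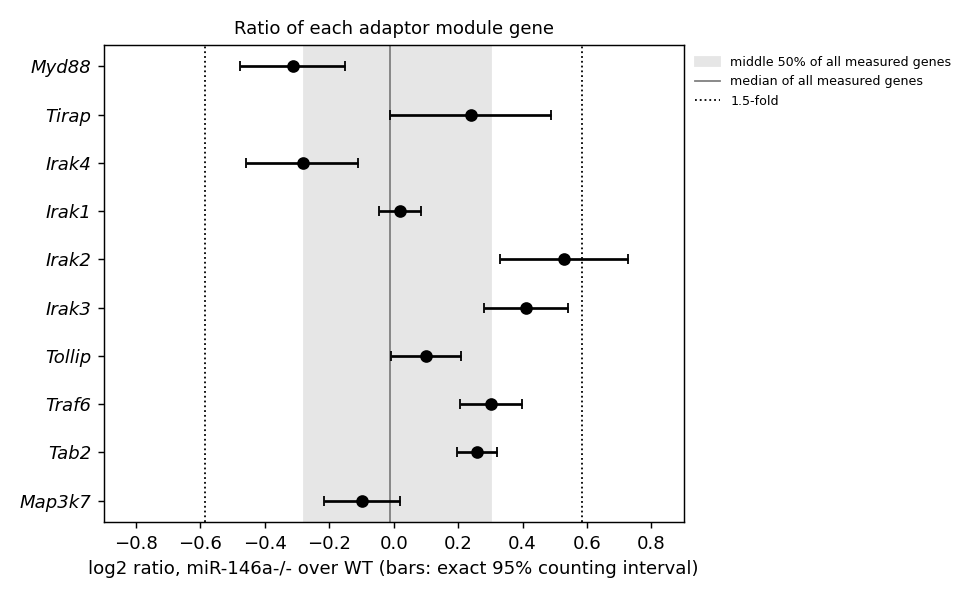
Log2 ratio of miR-146a-/- over WT for each of the 10 genes, with exact 95% counting intervals; dotted lines mark 1.5-fold, and the grey band the interquartile range of all 13880 measured genes. The points run from -0.31 for Myd88 to 0.53 for Irak2, and no interval lies wholly beyond a dotted line.

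Because ratios depend on scaling, the members were also compared within each library, where no scaling enters. The module held 27373 counts in WT and 10740 in miR-146a-/-. Irak1 gave the largest share in WT, at 26.9% (95% Clopper-Pearson interval 26.3 to 27.4%), and 24.9% (24.1 to 25.7%) in miR-146a-/-. Tab2 went from 26.4% (25.9 to 26.9%) to 28.9% (28.0 to 29.8%), and so held the largest share in the miR-146a-/- library. The share of Traf6 was 10.4% (10.1 to 10.8%) in WT and 11.7% (11.1 to 12.4%) in miR-146a-/-, and that of Myd88 was 5.09% (4.83 to 5.35%) and 3.74% (3.39 to 4.12%). For each of these 4 genes the intervals of the libraries did not overlap. The same held for Irak2, Irak3, Irak4 and Map3k7, but not for Tirap and Tollip. A share also moves when other members change, and the log2 ratio of Irak1 under TMM was 0.02 (-0.05 to 0.08).

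Pairs of members were compared in the same way. Of the counts of Irak3 and Irak4 together, Irak3 held 55.4% in WT (53.5 to 57.3%) and 66.8% in miR-146a-/- (63.9 to 69.6%), so the inhibitory member stood at 1.24 counts per Irak4 count in WT and 2.01 in miR-146a-/-. Irak2 held 7.71% (7.13 to 8.32%) and 10.6% (9.55 to 11.8%) of the Irak1 and Irak2 counts. Traf6 held 27.9% (27.1 to 28.8%) and 32.1% (30.6 to 33.5%) of the Traf6 and Irak1 counts, and both genes carry sites of 8 bases. For Irak2 beside Irak3 the shares of 29.4% (27.4 to 31.4%) and 31.1% (28.3 to 34.1%) overlapped, as did those of Tollip beside Irak1, at 25.3% (24.4 to 26.1%) and 26.4% (24.9 to 27.8%).

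**Figure D4:**
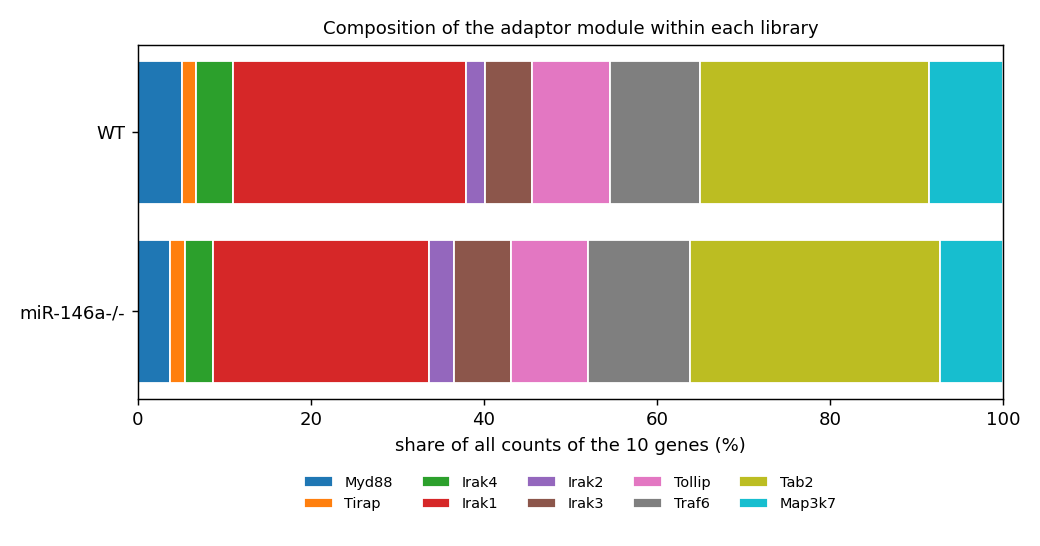
Share of all counts of the 10 genes (%) held by each gene, stacked to 100 within the WT library (top) and the miR-146a-/- library (bottom). Irak1 and Tab2 are the widest segments of each bar, and the segments of Myd88 and Irak4 are narrower in miR-146a-/-, at 3.74% and 3.26% against 5.09% and 4.34%.

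Per length of the longest transcript, Irak1 was the most abundant member in WT at 41.1 normalised CPM per kilobase, followed by Tab2 at 35.4. Tollip (14.1), Myd88 (12.1), Irak3 (10.2), Traf6 (9.91), Map3k7 (8.71) and Irak4 (7.41) formed the middle, with Irak2 (4.12) and Tirap (2.08) lowest. Only the neighbours Irak3 and Traf6 were not separated by their Poisson intervals. In the miR-146a-/- library Tab2 (42.4) and Irak1 (41.7) were not separated, nor were Tollip (15.1) and Irak3 (13.6), Irak3 and Traf6 (12.2), or Irak4 (6.09) and Irak2 (5.95). Per kilobase, Myd88 had rank 4 in WT and rank 6 in miR-146a-/-, at 9.78. With the merged length of all exons, 4 members took another rank in WT and 6 in miR-146a-/-.

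Ratios of members with and without a seed match covered overlapping ranges. The 5 with a 7-base match had a median log2 ratio of 0.24, from 0.02 for Irak1 to 0.53 for Irak2, and the 5 without one had a median of -0.10, from -0.31 for Myd88 to 0.41 for Irak3. The interval lay above equality for 2 of the 5 with a match (Traf6 and Irak2) and for 2 of the 5 without (Irak3 and Tab2). It lay below equality for 0 of the 5 with a match and for 2 of the 5 without (Irak4 and Myd88), and the ratio was positive in 5 of 5 and in 2 of 5. Among all 13880 measured genes, 6770 had a positive ratio. Over the 32 measured genes with at least 2 sites of 8 bases, Traf6 and Irak1 among them, the median was 0.13 with 1 called higher and 0 lower, beside -0.03 over all 12249 genes with a 3' UTR, of which 4.30% were higher and 1.45% lower. The median was 0.01 over the 558 genes with at least 1 site of 8 bases and 0.01 over the 207 with at least 2 matches of 7 bases. Split as the members were, it was 0.02 over the 1539 genes with at least 1 match of 7 bases. Over the 10710 genes without one it was -0.04. Of the genes with a match 4.74% were higher and 0.390% lower, and of those without 4.24% and 1.60%. These are descriptions of chosen genes in 1 pair of libraries and carry no test. Traf6, Irak1 and Irak2 were chosen as reported targets, so the group of members with a match was in part set by the choice. Scaled by total counts, both groups of members lay below 0.

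The promoters, taken from RefSeq (GRCm38.p6) as windows of 300 bases around the gene start, were searched on both strands for the NF-kB consensus. Of the 10 members, all of which had a promoter listed, Irak1 and Map3k7 had a match, where 12.3% of 9735 measured protein-coding genes did. The absence of a match in the Irak2 or Irak3 window says only that those letters are not in it.

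Most genes around the module, in lists drawn up by role, were not called, while 10 of 11 NF-kB response genes at the end of the pathway were. Each of the other lists held from 0 to 2 called genes. Over all measured genes 5.35% were higher and 1.53% lower, and no list was tested against these shares. Of 8 measured IL-1 family receptor genes 1 was higher and 0 lower, and the median was 0.15: the decoy receptor Il1r2 (147 and 159 counts) was at 1.59 (1.26 to 1.93), Il1rl2 at 0.68, and the signalling receptor Il1r1 and the inhibitory Sigirr at -0.18 and -0.22. Of 16 Toll-like receptor and chaperone genes 1 was higher, the DNA sensor Tlr9 at 1.52 (51 and 53 counts), and 1 lower, the chaperone Hsp90b1 at -0.87, with a median of 0.04. Cd14 was at 1.06 with an interval of -0.07 to 2.22 from 17 and 13 counts, and Tlr6 was at -0.42.

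The other TIR adaptors gave 0 of 4 called and a median of 0.37, with Pik3ap1 at 0.58, Ticam1 at 0.49, Ticam2 at 0.24 and Bank1 at -0.34. Of the 6 other TRAF genes, Traf1, an NF-kB-induced member, was higher at 0.97 (0.69 to 1.25) with 0 lower, while Traf5 was at 0.20, Traf3 at -0.31 and Traf2 at -0.50, and their median was -0.13. Among 12 ubiquitin partners of TRAF6, the scaffold Sqstm1 was higher at 0.79 (0.73 to 0.85), Ecsit was lower at -0.85 (-1.09 to -0.61), Tifa was at 0.66 and Ube2v2 at -0.44, with a median of 0.24.

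For the rest of the TAK1 and IKK complexes 0 of 5 were called, and the median was -0.09. Tab3, the paralog of Tab2, was at 0.37 and Ikbkb at 0.02, and Tab1 and Ikbkg were at -0.37 and -0.21. Of 11 genes in the MAP kinase arm below TAK1, Map3k8 was higher at 0.88 (0.69 to 1.06), and the median was 0.26. Map2k6 was at 0.46 and Mapk11 at -0.56. Mapk13 was at -0.79 with an interval of -2.12 to 0.31 from 39 and 8 counts. In the TRIF and interferon arm, Irf7 was higher at 0.93 (0.83 to 1.03) among 8 genes with a median of 0.19, and Ikbke was at 0.40, Irf3 at -0.30 and Azi2 at -0.02.

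Of 9 genes in the list drawn up as ubiquitin and phosphatase brakes, which holds no phosphatase gene, 2 were higher and 0 lower. These were Tnfaip3, which encodes A20 and removes ubiquitin chains made by TRAF6, and its partner Tnip1 at 0.73; the median was 0.12 and Usp4 and Cyld were at -0.27 and -0.16. Tnfaip3 had 3590 WT counts and 7701 from miR-146a-/-, or 77.0 and 460 normalised CPM, at 2.58 (2.52 to 2.64). The NF-kB response genes at the end of the chain stood at a median of 1.25, with 10 of 11 measured genes higher and 0 lower, from Icam1 at 0.77 to Tnf at 2.24 and Cxcl2 at 3.89, and Nfkb2 at 0.60 was the one not called. Between them lay the inhibitors Nfkbia (2.01), Nfkbiz (1.94) and Nfkbie (1.16), the chemokines Ccl3 (1.64) and Ccl4 (1.25), Relb (0.82) and Birc3 (0.79). This list was chosen with earlier results of these libraries known and is no independent evidence of its direction. Its median was 0.43 by total counts, where 5 were higher and 0 lower, and the medians of the other lists above were then below 0.

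**Figure D5:**
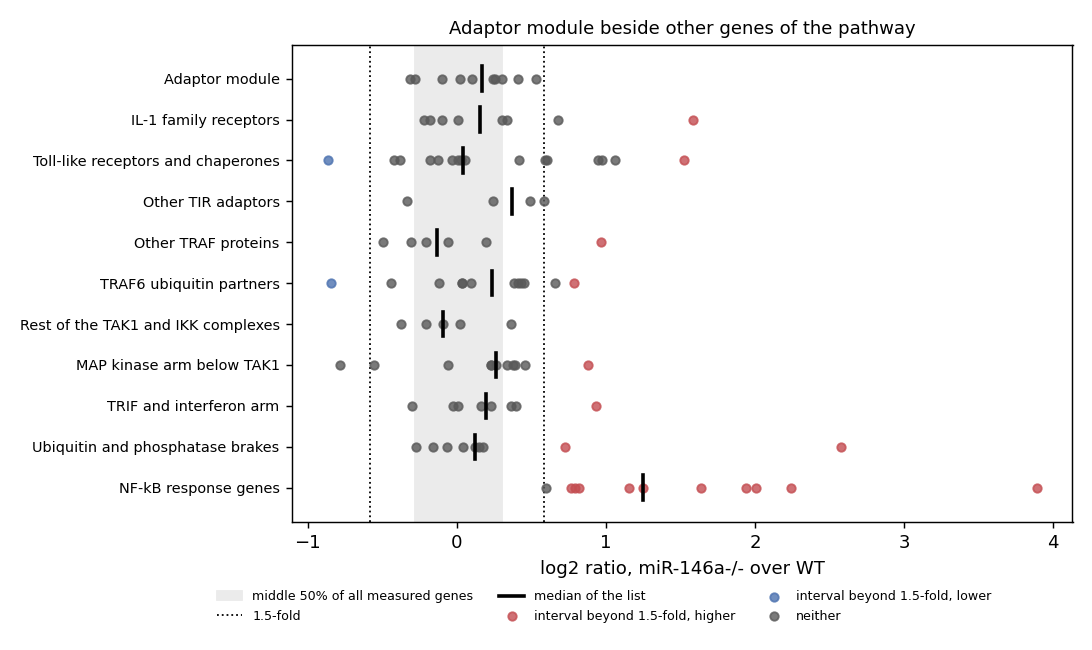
Log2 ratio of miR-146a-/- over WT for each measured gene of the adaptor module and of 10 other lists of the pathway, under TMM scaling; short vertical lines are list medians, dotted lines mark 1.5-fold, and the grey band is the interquartile range of all measured genes. The module spans -0.31 to 0.53 with no gene coloured, while 10 of 11 NF-kB response genes are coloured as higher.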

How the data were processed

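Ribosomal RNA was depleted from total RNA, per the labels' protocols. The authors deposited whole-number read counts per Ensembl gene, not normalised. Per the file headers, splice junctions were placed on the genome and duplicates were flagged. Per the submitters' processing notes, STAR 2.5.3a, Salmon 0.9.0 and mm10 were named, without roles. The counting program, its strand setting and its annotation were not given in the sources used here.

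Symbols, positions and 3' UTRs of protein-coding transcripts came from GENCODE M21, in which 37693 of 39017 identifiers had a name. TMM scaling (edgeR 4.0.16, R 4.3.3) used the 13880 genes with at least 20 summed counts. With 1 library per genotype, edgeR gave scaling only and no p-value exists. Log2 ratios put miR-146a-/- over WT, with a prior count of 0.5 and exact 95% Clopper-Pearson intervals, computed in Python 3.11.15 with scipy 1.17.1. The interval code was tested on simulated data. A gene was called when its whole interval lay beyond 1.5-fold.

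All members are named. Of each other list, up to 2 genes at either end and every called gene are named. Members and lists were chosen with earlier results of these data known. Genes with a like pattern were not sought, since 2 libraries give 1 ratio. Alternatives were other scalings (DESeq2 1.42.0 size factors, upper quartile, total counts, protein-coding genes only), count filters, prior counts, call thresholds, length and GC adjustment, thinned WT counts, and other UTR, site and length definitions.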

Additional observations from a re-analysis of the deposited data

How the results depend on the processing

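Each alternative run with calls of its own kept 0 members called higher, except the one that asks only that the interval exclude equality. That run called 4 higher and 2 lower by construction. The 2-fold rule could add no call to the same intervals, and the prior count does not enter the intervals. Total counts were the exception for lower calls: 5 members were lower, 0 intervals lay above equality and 10 below, and the median of the 10 ratios was -0.65 against 0.17. The ratios of Traf6, Irak2, Irak3 and Tab2 were then -0.52, -0.29, -0.41 and -0.56. The median of all genes moved to -0.83 with them. Relative to it Irak2 stood at 0.54 and Traf6 at 0.31 under total counts, beside 0.54 and 0.32 under TMM. Because 1 scaling factor shifts all ratios alike, this match was fixed in advance and is no check of either ratio. Under the other scalings, the filters, the prior count of 5, thinned WT counts and the length and GC adjustment, ratios ran from 0.19 to 0.34 for Traf6, 0.46 to 0.57 for Irak2, -0.38 to -0.26 for Myd88, -0.05 to 0.06 for Irak1 and 0.05 to 0.28 for Tirap, whose low value came with thinned counts.

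Over all genes, 742 higher and 212 lower became 140 and 7077 by total counts, so that higher genes made 1.94% of calls instead of 77.8%. They became 491 and 130 with at least 200 counts, 294 and 42 beyond 2-fold, and 3893 and 4032 where the interval only excluded equality, both set by the threshold. The count of lower genes was 322 without a filter. It was 141 once length and GC content were adjusted for, which covered protein-coding genes only. Before that adjustment, 177 of the 12249 measured protein-coding genes with an annotated 3' UTR were lower. The cause of either shift was not tested. No paired analysis was possible because each genotype had 1 library. Depth limited Tirap most, where 446 and 189 counts left an interval from -0.01 to 0.49.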
